A study of Mus musculus with 2 samples.

Results

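The miR-23, miR-27 and miR-24 genes form 2 paralogous clusters in the mouse genome, one on chromosome 8 (Mir23a, Mir27a and Mir24-2, the a cluster) and one on chromosome 13 (Mir23b, Mir27b and Mir24-1, the b cluster). These 6 genes were chosen by their names in the gene annotation, out of the 2202 miRNA genes counted. MicroRNAs were sequenced from RNA under 30 nt of the hippocampus of adult female mice of a strain labelled 5xFAD/CAST, aged 8 to 10 months. There was a single group, with 2 biological replicates that the labels list under the same donor entry and a tissue entry reading layer of hippocampus. No treatment and no comparison genotype is among the labels. 5xFAD is a transgenic mouse model of Alzheimer's disease whose transgenes are driven by the neuronal Thy1 promoter, and CAST commonly denotes an inbred strain of castaneus origin. With 1 group the data give the level of each gene, the ratios between the genes within a library and the distance between the 2 libraries. The p-values below therefore compare 2 libraries and not conditions, and they take counting error alone as their null.

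MicroRNAs are cut from hairpin precursors and guide the silencing complex to messenger RNAs that pair with their seed, bases 2 to 8 of the mature strand. The 3 hairpins of each cluster are made from 1 primary transcript, and the amount of each mature product can further be set by processing and decay. Both clusters are known from endothelium and blood vessel growth, and miR-23 also from glutamine metabolism through glutaminase, miR-27 from fat cell differentiation and miR-24 from the cell cycle. In the brain these miRNAs are expressed in neurons and glia as well as in vessels.

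The sequences are shown first, because the extent to which the a and b products share letters sets what a read can tell apart. They are from RefSeq (build GRCm38.p6), which had a hairpin for 6 of the 6 genes, and are written 5′ to 3′ with the seed in capitals. The table used here holds no entry named miR-23b-3p. The mature strands of the 3′ arms, the arms usually counted as the main products, were
miR-23a-3p: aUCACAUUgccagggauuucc
miR-27a-3p: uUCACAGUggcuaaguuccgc
miR-27b-3p: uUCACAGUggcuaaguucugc
miR-24-3p: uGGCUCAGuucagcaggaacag
The last of these has the same 22 letters in Mir24-1 and Mir24-2. The miR-27 strands share the first 18 of their 21 bases and differ by 1 substitution, C19U, counted from 1 at the 5′ end with the a strand first.

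The hairpin of Mir23b (chr13:63300484-63300557, plus strand) holds the first 18 bases of miR-23a-3p, which are in capitals here, followed by the 1 difference U19A.
Mir23b hairpin: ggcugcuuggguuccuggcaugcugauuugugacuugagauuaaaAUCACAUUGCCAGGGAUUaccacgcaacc
In both families a read that ends before base 19 is thus the same from a and b, while a full-length read is not. The 5′ arms differ earlier, and those of the miR-24 genes are shown because they are the part of the mature products in which the copies can be told apart.
miR-24-1-5p: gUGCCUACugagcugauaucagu
miR-24-2-5p: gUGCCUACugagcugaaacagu
These share their first 16 bases. Over the whole hairpins, 59 bases were identical between the miR-23 genes, 58 between the miR-27 genes and 60 between the miR-24 genes, or 79.7%, 79.5% and 88.2% of the shorter hairpin. The longest run shared without a gap was 20 nt for miR-23, 20 nt for miR-27 and 28 nt for miR-24.

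Outside the 2 clusters, no gene of the table had a mature product with the seed of miR-23 (UCACAUU) or miR-27 (UCACAGU). The seed of miR-24 (GGCUCAG) was also that of Mir6413, Mir6410, Mir6369 and Mir5124b, each with 0 counts in both libraries. A count of 0 allows up to 0.957 CPM (counts scaled to 1e6 assigned counts per library) in replicate 1 and 0.685 CPM in replicate 2, taken as 3 counts.

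In the mm10 build the a cluster spans 404 bp (chromosome 8, 84208518 to 84208921, plus strand) and the b cluster 792 bp (chromosome 13, 63300484 to 63301275, plus strand), in the same order of miR-23, miR-27 and miR-24. In the a cluster 79 bp lie between Mir23a and Mir27a and 56 bp between Mir27a and Mir24-2. In the b cluster these distances are 154 and 423 bp. Mir23a (ENSMUSG00000065611.1) and Mir27a (ENSMUSG00000065444.1) lie outside other annotated genes, and the end of Mir24-2 (ENSMUSG00000065541.1) overlaps the start of the non-coding gene Gm26532. The b cluster lies inside 2010111I01Rik, now named Aopep, which encodes an aminopeptidase. Mir23b (ENSMUSG00000065599.2) is in an intron of its 9 spanning transcripts. Mir27b (ENSMUSG00000065475.2) is in an intron of 8 of 9 and in a UTR exon of 1 transcript marked for nonsense-mediated decay. Mir24-1 (ENSMUSG00000105904.1) is in an intron of 7 of 8 spanning transcripts, and 4 transcripts have an exon over it, 0 of them protein-coding. On the minus strand, Mir3074-2 overlaps Mir24-2, Mir3074-1 overlaps Mir24-1, and an intron of the DNA repair gene Fancc covers the b cluster.

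Replicate 1 held 9962659 reads and replicate 2 held 12761689, with 3135960 and 4377622 of them assigned on the strand of a miRNA gene. Levels are given in CPM of these assigned counts. Reads with several positions, 36.3% and 41.7% of the totals, stand in a line of their own outside the gene counts. The sources used here do not say how the counter treated them beyond that line. The 6 genes held 75171 counts in replicate 1 and 142073 in replicate 2, which was 2.40% (exact 95% Clopper-Pearson interval 2.38% to 2.41%) and 3.25% (3.23% to 3.26%) of the counts, or 2.82% ± 0.600 (SD, n = 2). Intervals and floors cover counting error only, and PCR copies of 1 molecule were counted separately where they occurred. All 6 genes had at least 10 counts in each library, which held for 384 of the 2202 genes.

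Mir23b and Mir23a, the miR-23 genes, were the most abundant of the 6, and the b gene was higher in both libraries. Mir23b had 44474 counts in replicate 1 and 84469 in replicate 2, or 14182 and 19296 CPM, with a mean of 16739 ± 3616 CPM (SD, n = 2). Its rank was 13 among the 2202 genes by mean level. Mir23a had 24501 and 46579 counts, or 7813 and 10640 CPM, with a mean of 9227 ± 1999 CPM and rank 22. The values of Mir23b were above those of Mir23a in both libraries and the ranges did not overlap. The ratio within a library moved less than the levels: Mir23b was 1.82-fold higher than Mir23a in replicate 1 (exact 95% interval 1.79 to 1.84) and 1.81-fold higher in replicate 2 (1.79 to 1.83). The log2 ratio was 0.86 ± 0.00098 (SD, n = 2).

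Mir27b and Mir27a, the middle genes, were far apart. Mir27b had 5469 counts in replicate 1 and 9799 in replicate 2, or 1744 and 2238 CPM, with a mean of 1991 ± 350 CPM and rank 62. Mir27a had 491 and 730 counts, or 157 and 167 CPM, with a mean of 162 ± 7.20 CPM and rank 173. The b gene was 11.1-fold higher in replicate 1 (exact 95% interval 10.2 to 12.2) and 13.4-fold higher in replicate 2 (12.4 to 14.5). The log2 ratio was 3.61 ± 0.19 (SD, n = 2), so the gap between the genes was far wider than the spread between the libraries.

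Mir24-2 and Mir24-1, the last genes of the clusters, had the lowest counts and the opposite order. Mir24-2, of the a cluster, had 153 counts in replicate 1 and 365 in replicate 2, or 48.8 and 83.4 CPM, with a mean of 66.1 ± 24.5 CPM and rank 225. Mir24-1 had 83 and 131 counts, or 26.5 and 29.9 CPM, with a mean of 28.2 ± 2.45 CPM and rank 264. The a gene was 1.84-fold higher in replicate 1 (exact 95% interval 1.40 to 2.44) and 2.79-fold higher in replicate 2 (2.28 to 3.43), and the ranges of CPM did not overlap. The log2 ratio of b over a was -1.18 ± 0.42 (SD, n = 2). Since miR-24-3p has the same letters at both genes, a read of it has more than 1 position, and the level of either copy is uncertain. The arm from which the counted reads came is not told by a count per gene.

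**Figure D1:**
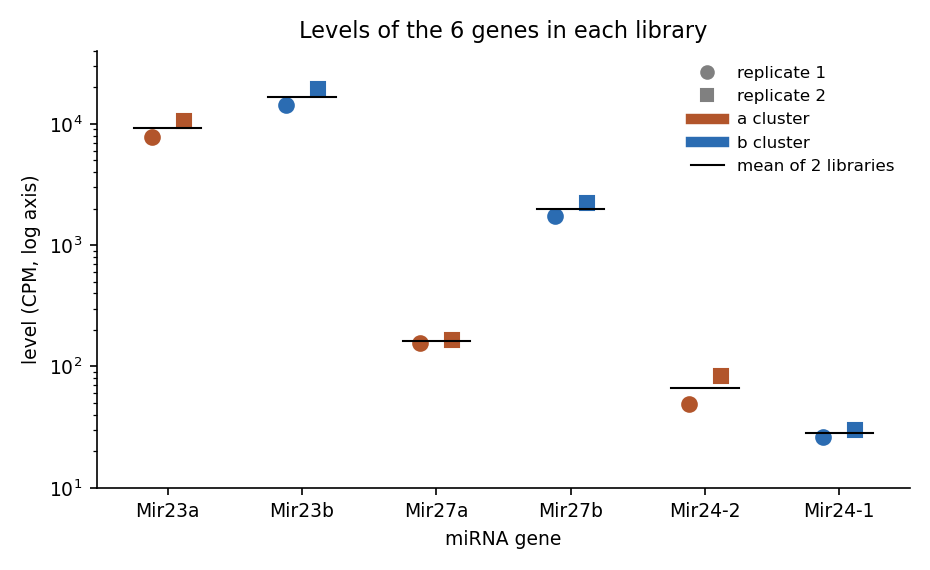
Level of each of the 6 genes in CPM on a log axis, with 1 point per library (circles replicate 1, squares replicate 2), a line at the mean of both, and colour by cluster. The miR-23 genes lie between 7813 and 19296 CPM, Mir27b at 1744 and 2238 CPM, and the other 3 genes between 26.5 and 167 CPM.

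Summed over its 3 genes, the b cluster was 1.98 ± 0.00665-fold (SD, n = 2) as high as the a cluster. The b genes had 50026 counts in replicate 1 and 94399 in replicate 2, the a genes 25145 and 47674. The b cluster thus held 1.60% and 2.16% of all counts (1.88% ± 0.397, SD, n = 2) and the a cluster 0.802% and 1.09% (0.945% ± 0.203). Within a library b was 1.99-fold higher in replicate 1 (exact 95% interval 1.96 to 2.02) and 1.98-fold higher in replicate 2 (1.96 to 2.00). The mean log2 ratio was 0.99 ± 0.0048. The clusters, the miR-23 genes and the miR-27 genes were higher for b in 2 of 2 libraries and the miR-24 genes in 0 of 2. With 2 libraries an exact sign-flip permutation test (two-sided) cannot go below p = 0.5, the value it gave for each of the 4 ratios.

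**Figure D2:**
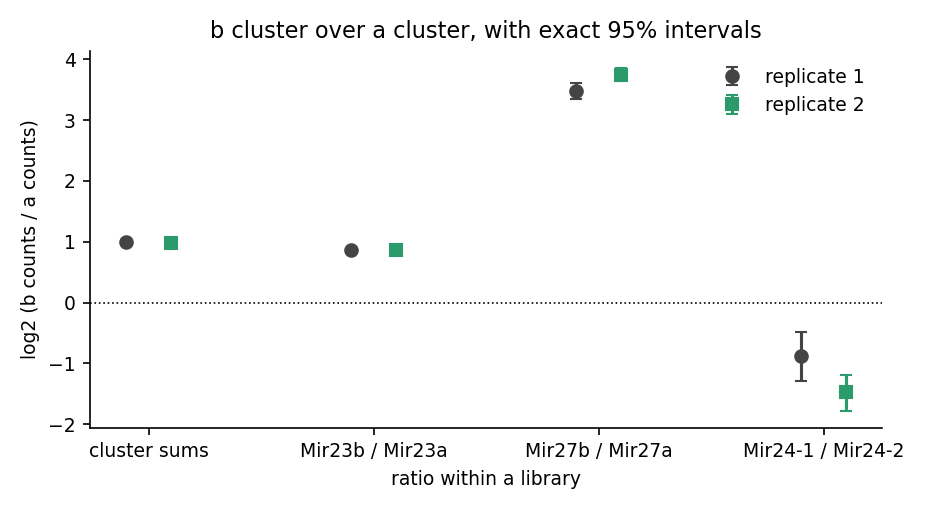
Log2 ratio of b counts to a counts within each library for the cluster sums and the 3 pairs, with exact 95% intervals from the counts (narrower than the symbol for the first 2). The cluster sums lie at 0.99 in both libraries and the miR-23 pair at 0.86, while the miR-27 pair is at 3.48 and 3.75 and the miR-24 pair below 0, at -0.88 and -1.48.

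The b over a ratio of the miR-27 and miR-24 pairs differed between the libraries beyond counting error, and that of the miR-23 pair and of the cluster sums was not found to differ. For Mir27b over Mir27a the log2 ratio was higher in replicate 2 by 0.27 (95% interval 0.094 to 0.44; Fisher's exact test, two-sided, adjusted over 4 ratios, p = 0.00962). For Mir24-1 over Mir24-2 it changed by -0.60 (95% interval -1.10 to -0.092; Fisher's exact test, adjusted p = 0.0375). For Mir23b over Mir23a the difference was -0.0014 (-0.029 to 0.026; Fisher's exact test, adjusted p = 0.926), and for the cluster sums -0.0068 (-0.034 to 0.020; adjusted p = 0.830).

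The make-up of the 2 clusters also differed. Mir23a made up 97.4% and 97.7% of the a cluster's counts (97.6% ± 0.187, SD, n = 2), and Mir23b 88.9% and 89.5% of the b cluster's (89.2% ± 0.409). Mir27a was 1.95% and 1.53% of its cluster (1.74% ± 0.298) and Mir27b 10.9% and 10.4% (10.7% ± 0.390). Mir24-2 was 0.608% and 0.766% of the a cluster, and Mir24-1 0.166% and 0.139% of the b cluster. Reads in the line for several positions are not in these counts, so the shares of the miR-24 genes are as uncertain as their levels. For each of the 3 families the ranges of the a and b shares over the 2 libraries did not overlap. The shares of a cluster add up to its whole, so the 3 families are not separate observations. How often other gene pairs part in this way was not counted.

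As a ratio, Mir23a exceeded Mir27a 49.9-fold in replicate 1 (exact 95% interval 45.6 to 54.7) and 63.8-fold in replicate 2 (59.3 to 68.7). Mir23b exceeded Mir27b 8.13-fold (7.91 to 8.37) and 8.62-fold (8.44 to 8.80). The miR-27 to miR-23 ratio was therefore 6.14 times as high in the b cluster as in the a cluster in replicate 1 (exact 95% interval 5.59 to 6.75) and 7.40 times as high in replicate 2 (6.86 to 8.00), or 2.75 ± 0.19 on the log2 scale (SD, n = 2). Mir27a exceeded Mir24-2 by 3.21-fold (2.67 to 3.87) and 2.00-fold (1.76 to 2.27), and Mir27b exceeded Mir24-1 by 65.9-fold (53.1 to 82.9) and 74.8-fold (63.0 to 89.6). These ratios set different sequences side by side, and how far ligation, amplification or read assignment favours one sequence over another was not tested. Ratios to the miR-24 genes also carry the uncertainty of those levels.

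**Figure D3:**
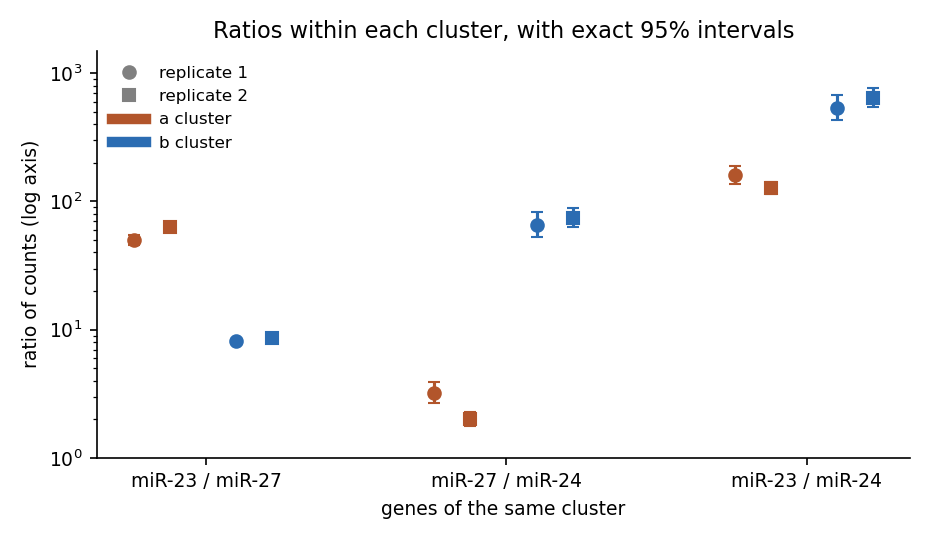
Ratio of counts between genes of the same cluster on a log axis, per library, with exact 95% intervals (circles replicate 1, squares replicate 2, colour by cluster). The miR-23 to miR-27 ratio is 49.9 and 63.8 in the a cluster and 8.13 and 8.62 in the b cluster, while both ratios to miR-24 are higher in the b cluster.

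Other neighbouring miRNA genes give the range of such ratios. There were 81 further pairs of consecutive genes on 1 strand within 10000 bp, both with at least 10 counts in each library, 41 of them on chromosome 12. Their median log2 ratio, taken without sign, was 3.10. The Mir23b and Mir27b ratio, at 3.07 on that scale, was close to this median, with 41 of the 81 pairs above it. Mir23a and Mir27a were at 5.82, with 10 of 81 above, Mir27b and Mir24-1 at 6.13, with 7 above, and Mir27a and Mir24-2 at 1.34, with 63 above. These are descriptions, with no test, of pairs that share libraries and were chosen by strand and distance. Whether the genes of each pair share a transcript was not tested.

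All 6 genes were higher in replicate 2 than in replicate 1, by less than 2-fold. After TMM scaling, which sets the libraries to a common level by a trimmed mean over genes, the log2 difference was 0.38 for Mir23a, 0.37 for Mir23b, 0.29 for Mir27b, 0.70 for Mir24-2, 0.11 for Mir24-1 and 0.02 for Mir27a. Of the 6, 4 passed an exact binomial test of the counts with Benjamini-Hochberg adjustment over 459 genes, all higher in replicate 2: Mir23a (adjusted p = 3.27e-243), Mir27b (1.79e-32), Mir24-2 (7.18e-07) and Mir23b, whose p was below what the software can represent. Mir24-1 (adjusted p = 0.708) and Mir27a (0.877) did not. The same test called 56.9% of the 459 genes, and 27.9% of the 459 as higher in replicate 2. Called or not, 238 of the 459 genes were higher in replicate 2, against 6 of the 6. Genes of 1 cluster come from 1 primary transcript, so these directions are not separate observations. A 2-fold ratio was passed by 19.2% of the 459 genes and by 0 of the 6. The median log2 difference was 0.33 over the 6 genes and 0.03 over all genes tested, and the SD over all genes tested was 0.93. By size without sign, Mir24-2 lay at the 68.6th percentile of the 459 genes, Mir23a at the 46.6th and Mir27a at the 1.74th.

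**Figure D4:**
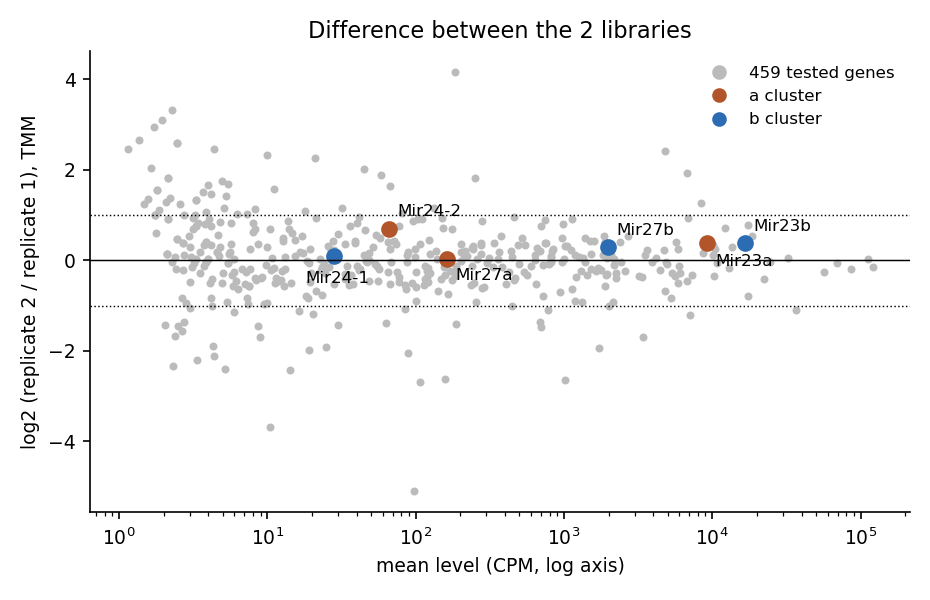
Log2 ratio of replicate 2 to replicate 1 after TMM scaling against the mean level on a log axis, 1 point per gene for the 459 genes with at least 10 counts in either library. The 6 genes lie between 0.02 and 0.70, inside the dotted lines at a 2-fold ratio.

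Other paralogous miRNA genes give the range against which the 3 b and a pairs may be read. In 20 comparison pairs, 3 of which lie within 10000 bp on 1 strand, the log2 ratio of CPM + 1 without sign had a median of 2.34 and ran from 0.10 for Mir181c and Mir181d to 8.84 for Mir146 and Mir146b. On that scale the miR-23 pair was at 0.86, the miR-24 pair at 1.15 and the miR-27 pair at 3.604, with 16, 15 and 8 of the 20 pairs above them. The log2 ratio differed between the libraries by 0.0014 for the miR-23 pair, a smaller value than in any of the 20 pairs. In those the difference ran from 0.012 for Mir29a and Mir29c to 5.32 for Mir26b and Mir26a-1, with a median of 0.53. For the miR-27 and miR-24 pairs the differences were 0.27 and 0.59, and 6 and 11 of the 20 pairs differed by less. The counting-error interval for the miR-23 pair, -0.029 to 0.026, includes 0.012, so its place below Mir29a and Mir29c is not resolved. Counting error is also wider at lower counts. The summed level of the 20 pairs had a median of 1231 CPM, against 25965 CPM for the miR-23 pair. The part of counting error in the differences of the 20 pairs was not tested. Of the comparison pairs, 10 share a letter-identical mature product as the miR-24 genes do, and their summed level had a median of 333 CPM. For the 9 pairs that share none it was 1529 CPM, and the miR-24 pair summed to 94.3 CPM. Mir30b and Mir30d had no value for sharing. Over all 1018 genes matched to a mature product the measure was the level of single genes, which is not comparable with these sums of pairs. Of 94 genes sharing one, 46.8% had at least 10 counts in each library, and the median of those that did was 98.1 CPM. Of 924 genes sharing none, 32.8% had at least 10 counts in each library, and the median of those was 125 CPM.

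**Figure D5:**
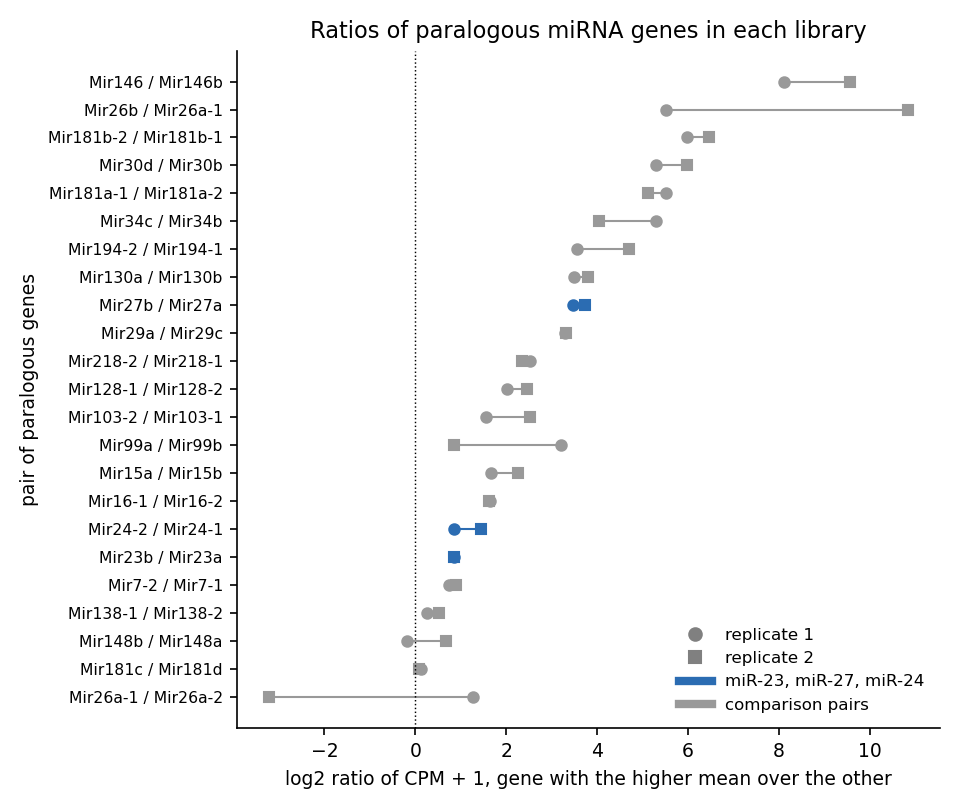
Log2 ratio of CPM + 1 for 23 pairs of paralogous genes, higher mean over lower, with 1 point per library (circles replicate 1, squares replicate 2) joined by a line. The points of the miR-23 pair coincide at 0.86, those of the miR-27 pair are at 3.47 and 3.74 and those of the miR-24 pair at 0.86 and 1.45.

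The gene closest to each of the 6 in level over the 2 libraries, by Euclidean distance in log2(CPM + 1), was Mir29a for Mir23b (distance 0.21), Mir26b for Mir23a (0.18), Mir335 for Mir27b (0.13), Mir574 for Mir27a (0.08), Mir377 for Mir24-2 (0.21) and Mir33 for Mir24-1 (0.09). Mir29a was at 18401 ± 5451 CPM and Mir26b at 10056 ± 1965 CPM, so neither differed from its miR-23 neighbour by more than the SD between the libraries. With 2 libraries this likeness is one of level, and it follows from picking the closest of all genes by these same values.

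Other miRNAs tied to blood vessels were mostly present, with no common direction between the libraries. Of 20 listed genes 17 were found by name, 14 had at least 10 counts in each library and their median level was 253 CPM over the 17 found, against 1076 CPM over the 6 cluster genes and 116 CPM over the 384 genes with at least 10 counts in each library. Of the 14 tested, 4 were called higher and 7 lower in replicate 2 by the exact binomial test, and their median log2 difference was -0.35. Over all 459 genes the same test called 56.9%, and 27.9% as higher in replicate 2, so the share called higher in the list was near the background. That holds for this direction only. Over all genes 128 of the 261 calls were higher in replicate 2, a near even split, while the list had 7 lower against 4 higher. Those called higher were Mir126a, Mir10a, Mir10b and Mir296, and those called lower Mir221, Mir222, Mir143, Mir145a, Mir17, Mir100 and Mir132. The last of these, Mir132, is also in the neuronal list below, so its fall is not particular to vessels. The annotation holds genes named Mir92-1, Mir92-2 and Mir18, left out of these counts because the list had Mir92a-1, Mir92a-2 and Mir18a. By the same exact binomial test Mir92-1 was called higher in replicate 2 (log2 difference 0.54, adjusted p = 1.55e-21). Mir92-2 (0.55, adjusted p = 0.0696) and Mir18 (0.16, adjusted p = 0.678) were not called. Mir221 and Mir222, which share a seed and act in endothelium and smooth muscle, differed by -1.21 and -1.93. Mir126a, the main endothelial miRNA, was at 12521 CPM in replicate 1 and 22475 CPM in replicate 2, a log2 difference of 0.77, and Mir126b was at 0 counts. The smooth muscle and pericyte markers Mir143 and Mir145a summed to 8170 and 6864 CPM. Mir126a thus moved in the direction of the 6 genes and the mural markers did not. That direction was not particular to the endothelial marker. Of 7 neuronal markers tested, 3 were called higher and 3 lower in replicate 2, among them Mir128-1 with a log2 difference of 0.93 and Mir132 with -0.80. The part of vessel content in the difference between the libraries was not tested. In bulk tissue, fewer cells of a type and less RNA per cell cannot be told apart.

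Markers of brain cells were present in both libraries. Of 10 neuronal genes 7 had at least 10 counts in each library, led by Mir127 at 24590 ± 432 CPM and Mir132 at 17397 ± 6067 CPM, and the list summed to 60230 and 59184 CPM. These near equal sums hold genes that moved in opposite directions, with 3 called higher and 3 lower in replicate 2 by the exact binomial test. The 3 copies of Mir124a, the classic neuronal miRNA, had at most 8 counts each. They are known to give the same main mature strand, so the limit stated for miR-24-3p holds for them too and these counts are no measure of miR-124. The oligodendrocyte list summed to 6799 and 6685 CPM, the microglial and blood-derived list to 460 and 479 CPM, and the red blood cell list to 70.2 and 78.4 CPM. Mir122 of liver was at 28.4 and 38.4 CPM. Of the striated muscle list 3 of 4 genes (Mir1a-1, Mir1a-2 and Mir133a-1) were at 0 counts, and Mir206 was at 26.5 and 22.6 CPM. Whether reads with several positions bear on these zeros was not tested.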

How the data were processed

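For each library the authors deposited raw read counts of 2202 miRNA genes in 3 columns, below 4 summary lines, made on mm10 with annotation M21 per the deposited notes. Aligner, counter and trimming: not given in the sources used here. From the values, the columns hold counts of either strand, of the gene's strand (used here) and of the opposite strand. The members, lists and comparisons were chosen with earlier results of these data known.

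Symbols and positions came from GENCODE M21, where 0 identifiers were unmatched, and sequences from RefSeq. CPM used the counts assigned to miRNA genes. The 4 summary lines, 68.5% and 65.7% of the reads, were left out. Ratios within a library have exact Clopper-Pearson 95% intervals, and ratios of ratios and differences between libraries have exact conditional odds ratio intervals. Genes with at least 10 counts in either library were compared between libraries with an exact binomial test on edgeR 4.0.16 TMM effective sizes (factors 0.976 and 1.02), called at an adjusted p of 0.05; log2 differences had 0.5 CPM added. Tested on simulated counts of 459 genes, this test recovered 84.0% of 2-fold and 100% of 4-fold changes and called 1.93% of unchanged genes. The simulated counts held Poisson error alone, while these libraries spread more widely (edgeR common biological coefficient of variation 0.385), so the rates do not carry over to them.

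Named genes are the 6 members, overlapping or neighbouring miRNA genes, the nearest gene in level, genes of the same seed, and the vascular, marker and paralog lists; Mir92a-1, Mir92a-2 and Mir18a had no match by name. Alternatives were DESeq2 1.42.0 size factors, library totals, other count minimums, the unstranded column, an added 0.5 counts and each replicate left out. The samples are called biological replicates under 1 donor entry, so p-values measure the difference between these samples only. Scripts ran in R 4.3.3 and in Python 3.11.15 with scipy 1.17.1.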

Additional observations from a re-analysis of the deposited data

Results flagged for a closer look

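Counts appeared on the strand opposite to 1 of the 6 genes. Mir24-1 had 28 counts on the other strand in replicate 1 and 27 in replicate 2, above the limit of 3 counts that a count of 0 allows, beside 83 and 131 on its own strand. The same 28 and 27 counts stand on the own strand of Mir3074-1, the miRNA gene that overlaps Mir24-1 on the minus strand. The other 5 genes, Mir24-2 with its own opposite gene Mir3074-2 included, had 0 counts on the other strand in both libraries. The mature strand miR-3074-5p has the same 22 letters at Mir3074-1 and Mir3074-2, so a read of it has more than 1 position. The limit stated for miR-24-3p holds here too, and 28 and 27 counts against 0 are no measure of a difference between the copies.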

How the results depend on the processing

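The 4 ratios of b over a kept their direction under each alternative that gave a value. The log2 ratio of the clusters was 0.99 and became 0.997 both without the Mir24 copies and in counts made without regard to strand, a move wider than its SD of 0.0048 but small beside the ratio. With 1 replicate left out it ran from 0.986 to 0.992, that of the miR-23 pair from 0.859 to 0.860, that of the miR-27 pair from 3.48 to 3.75 and that of the miR-24 pair from -1.48 to -0.88. Counted without regard to strand, Mir24-1 and Mir24-2 had 0 counts in both libraries, so their ratio has no value there; both overlap an annotated gene on the other strand. The same 4 of the 6 genes were called between the libraries under all 4 alternative scalings and count minimums, and 6 of 6 were higher in replicate 2. The number of all genes called ran from 215, of 277 with at least 100 counts, to 268, against 261. Scaled to all reads in place of assigned reads, the levels of the 6 genes are lower by construction (Mir23b 5542 CPM, Mir24-1 9.30 CPM). With choices made after seeing the data, the tests of ratios between the libraries were rerun without regard to strand and, for the clusters, without the Mir24 copies. The miR-23 and miR-27 genes have the same counts with and without regard to strand. For them this alternative could change nothing but the adjustment, so it is no check of their ratios or calls. For the clusters both reruns use the same counts, since the Mir24 copies have 0 counts without regard to strand. Their adjusted p was 0.926 (Fisher's exact test), also not called. The miR-24 test (Fisher's exact test, adjusted p = 0.0375) was not repeated, having no counts there. No paired analysis was possible because there is 1 group, so replicate numbers pair no samples between groups; b and a were compared within each library. Depth limits the miR-24 genes most, with 83 to 365 counts.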
